A study of Mus musculus with 8 samples.

Results

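The genes of the 2 Polycomb repressive complexes were examined for peaks of Mta2, Mbd3 and Zbtb7a in mouse kidney cortex. They were the 10 genes Ezh2, Ezh1, Eed, Suz12, Jarid2, Ring1, Rnf2, Bmi1, Pcgf2 and Cbx7, chosen by name, out of 21631 protein-coding genes on autosomes and chromosome X. A peak was assigned to a gene when its summit, the position of highest signal, lay in the gene's RefSeq span (GRCm38) or within 20 kb of it. The labels give chromatin immunoprecipitation with antibodies against Mta2, Mbd3 and Zbtb7a, with Input chromatin as the control, and 2 biological replicates in each of these 4 groups. The titles of the replicates carry the same 2 identifiers in every group. Every library came from kidney cortex of 2-month-old mice with the genotype Mta2flx/flx; the labels name no Cre, so the loxP-flanked gene appears here without a stated deletion. Mta2 and Mbd3 belong to NuRD, a complex that moves nucleosomes and removes acetyl groups from histones, and Zbtb7a is a DNA-binding repressor with zinc fingers. The data are 1 peak list per factor for both mice together, in which Mta2 has 149855 peaks, Mbd3 134248 and Zbtb7a 124616, so no value per mouse, SD or test across mice can be given. Cortex holds many cell types, and a peak cannot be assigned to any of them.

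Polycomb proteins keep genes silent through chromatin. Polycomb repressive complex 2 (PRC2) methylates a lysine in the tail of histone H3, and Polycomb repressive complex 1 (PRC1) attaches ubiquitin to histone H2A and compacts nucleosomes. Ezh2 and Ezh1 are the alternative methyltransferases of PRC2, with Ezh2 typical of dividing cells and Ezh1 of resting ones; Eed and Suz12 are core subunits, and Jarid2 helps to recruit the complex. Rnf2 and Ring1 are the alternative ubiquitin ligases of PRC1, Bmi1 and Pcgf2 their RING finger partners in canonical PRC1, and Cbx7 the subunit that reads the methyl mark.

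The bases upstream of 4 of these genes and of 1 neighbour are shown because the results below turn on these starts. Some summits at these starts lie outside the bases printed. They are all those of Ezh2, those of Mta2 and Zbtb7a at Jarid2 and that of Zbtb7a at Suz12. Rnf2 carried the highest Zbtb7a fold at its own start, Jarid2 the highest Mta2 and Mbd3 folds, Ezh2 the lowest Zbtb7a fold, and Suz12 an E2F-type motif; Commd3 is the neighbour of Bmi1 under the strongest peak in the windows of the 10 genes. Each run is the 250 bases before the start listed by RefSeq (GRCm38.p6), read in the direction of the gene. The capitals mark the letters of the motifs searched for on both strands: the GC box (GGGCGG), the CCAAT box (CCAAT), the E2F site (TTTGGCGC or TTTCCCGC), YY1 (AAGATGGC) and the core of the element in the human gamma-globin promoters that ZBTB7A binds (CTTCCCC).
Rnf2, chr1:151500992-151501241, minus strand: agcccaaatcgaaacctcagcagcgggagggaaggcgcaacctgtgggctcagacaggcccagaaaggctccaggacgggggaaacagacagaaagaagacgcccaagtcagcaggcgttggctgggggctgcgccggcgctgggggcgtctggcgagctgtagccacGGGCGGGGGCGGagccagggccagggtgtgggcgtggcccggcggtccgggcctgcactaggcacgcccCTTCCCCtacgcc
Jarid2, first listed start, chr13:44730524-44730773, plus strand: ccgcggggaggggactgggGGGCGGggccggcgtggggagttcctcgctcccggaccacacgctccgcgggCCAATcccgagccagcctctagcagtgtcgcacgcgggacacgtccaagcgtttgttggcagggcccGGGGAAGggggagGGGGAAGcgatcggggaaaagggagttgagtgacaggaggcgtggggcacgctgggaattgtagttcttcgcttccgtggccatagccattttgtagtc
Ezh2, chr6:47595031-47595280, minus strand: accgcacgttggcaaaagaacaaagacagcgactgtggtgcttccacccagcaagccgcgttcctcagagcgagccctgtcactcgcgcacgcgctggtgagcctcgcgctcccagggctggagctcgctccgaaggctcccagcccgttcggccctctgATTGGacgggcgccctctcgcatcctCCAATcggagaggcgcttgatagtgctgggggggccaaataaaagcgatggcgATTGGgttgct
Suz12, chr11:79992856-79993105, plus strand: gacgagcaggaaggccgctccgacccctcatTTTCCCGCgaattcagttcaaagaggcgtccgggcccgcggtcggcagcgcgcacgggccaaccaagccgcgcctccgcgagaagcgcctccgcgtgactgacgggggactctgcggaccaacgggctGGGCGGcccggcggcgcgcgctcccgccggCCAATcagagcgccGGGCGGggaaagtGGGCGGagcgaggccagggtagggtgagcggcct
Commd3, chr2:18672185-18672434, plus strand: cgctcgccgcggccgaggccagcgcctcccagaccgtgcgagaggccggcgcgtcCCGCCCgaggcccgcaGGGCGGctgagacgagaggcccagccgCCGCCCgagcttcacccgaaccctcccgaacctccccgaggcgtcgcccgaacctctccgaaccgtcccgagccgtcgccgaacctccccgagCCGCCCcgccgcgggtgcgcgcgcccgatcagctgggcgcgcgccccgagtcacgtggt

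All 10 Polycomb genes had a summit of each factor within 1 kb of a listed start. The same held for 67.8% of the 17274 protein-coding genes with a listed start for Mta2, 66.5% for Mbd3 and 66.5% for Zbtb7a, and for 64.0% with all 3 factors. Promoters rich in CpG were occupied more often than that. Among genes with a listed promoter of 300 bases whose ratio of observed to expected CpG was at least 0.6, a class drawn after the peaks were seen, 92.4% had all 3 factors, and 9 of the 10 Polycomb genes belong to it. The count of 10 is therefore near the share for promoters of this composition. With the wider window of 20 kb all 10 genes again had each factor, against 86.4% of protein-coding genes for Mta2, 85.5% for Mbd3, 85.0% for Zbtb7a and 83.9% for all 3, which leaves little room for a difference.

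The genes differed in how strong these peaks were. Strength is given as the fold enrichment at the peak that the authors' caller reported, and as its percentile among the genes occupied by that factor within 1 kb of a start, of which there were 11705 for Mta2, 11494 for Mbd3 and 11488 for Zbtb7a. Folds of different factors are not on a common scale. Over the 10 starts Mta2 had a median fold of 21.1, Mbd3 of 22.8 and Zbtb7a of 22.0, against 15.3, 14.1 and 14.9 over all occupied genes. Over the occupied genes of the CpG-rich class the medians were 17.0, 15.6 and 16.8. The Polycomb genes above the median of occupied genes numbered 10 for Mta2, 7 for Mbd3 and 9 for Zbtb7a. Of these, Suz12, Bmi1 and Pcgf2 were below the Mta2 median of the CpG-rich class, with Mta2 folds of 16.9, 16.7 and 16.5. The 7 genes counted for Mbd3 and the 9 for Zbtb7a were above both medians. Below both were Suz12, Pcgf2 and Cbx7 for Mbd3 and Ezh2 for Zbtb7a. In all 3 lists the same 4 genes, Jarid2, Rnf2, Ring1 and Eed, had the highest folds of the group.

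**Figure D1:**
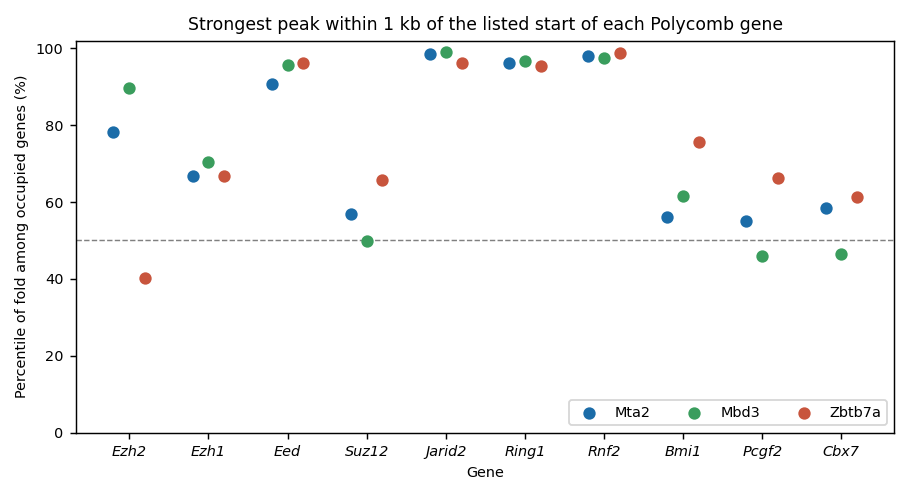
The vertical axis gives, for each Polycomb gene on the horizontal axis, the percentile of the fold of its strongest peak within 1 kb of a listed start among all genes occupied by that factor; colours mark Mta2, Mbd3 and Zbtb7a and the dashed line is the median of occupied genes. Eed, Jarid2, Ring1 and Rnf2 lie above 90 for every factor, and Ezh2 has its Zbtb7a point at 40.3.

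Among the core PRC2 genes, the methyltransferase gene Ezh2 (chr6:47530274-47595270, minus strand) had folds of 22.9 for Mta2, 26.7 for Mbd3 and 12.4 for Zbtb7a at its start. These lay at percentiles 78.2, 89.6 and 40.3 of occupied genes. Among occupied genes Ezh2 was thus in the upper part for Mta2 and Mbd3 and below the middle for Zbtb7a. In the whole Zbtb7a list, which includes peaks away from starts, its peak was at percentile 81.3. The Mta2 and Mbd3 summits stood 661 and 655 bp inside the gene and the Zbtb7a summit 309 bp upstream of the start. The Zbtb7a summit was 970 bp from that of Mta2, although the intervals of all 3 factors overlapped there.

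Its paralog Ezh1 (chr11:101191115-101226463, minus strand) had folds of 19.2, 19.0 and 20.1 for Mta2, Mbd3 and Zbtb7a, at percentiles 66.7, 70.5 and 66.9. The summits of Mta2 and Zbtb7a lay 7 and 8 bp inside the start and that of Mbd3 15 bp upstream of it. Side by side, Ezh2 had higher folds than Ezh1 for Mta2 and Mbd3 and a lower one for Zbtb7a. The span of Ezh1 and its flanks held 14 Mta2, 14 Mbd3 and 16 Zbtb7a summits, among the densest of the group.

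Eed (chr7:89954654-89980976, minus strand), which encodes the subunit that binds methylated histone H3, had few summits in its window but strong peaks at its start. Its window held 4 Mta2, 5 Mbd3 and 3 Zbtb7a summits, and the folds at its start were 29.7, 33.1 and 46.9. The Zbtb7a peak ranked 1017 of 124616 in its list, with the summit 293 bp inside the gene and the Mta2 and Mbd3 summits at 349 and 375 bp. Suz12 (chr11:79993106-80034123, plus strand), whose product holds the enzyme core together, was near the middle of occupied genes with folds of 16.9 for Mta2, 14.1 for Mbd3 and 19.7 for Zbtb7a, at percentiles 56.9, 49.8 and 65.6. Its summits were 4 bp upstream of the start for Mta2, 33 bp upstream for Mbd3 and 96 bp inside for Zbtb7a. No Mbd3 summit lay in the rest of the Suz12 span, where Mta2 had 2 and Zbtb7a 1. These were weak peaks, with folds of 2.71 and 3.13 for Mta2 and 4.11 for Zbtb7a, at percentiles 10.8, 20.2 and 40.0 of their lists.

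Jarid2 (chr13:44730774-44921643, plus strand) had the strongest NuRD peaks of the group and the most summits. The peak at its start ranked 592 of 149855 in the Mta2 list with a fold of 45.3, and 546 of 134248 in the Mbd3 list with a fold of 44.8. The Zbtb7a peak there had a fold of 47.0 and rank 1008. Its summits lay 258, 178 and 437 bp upstream of the first of 2 listed starts for Mta2, Mbd3 and Zbtb7a. With a span of 190.9 kb, Jarid2 is also the longest gene of the group, and its window held 34 Mta2, 27 Mbd3 and 30 Zbtb7a summits. Per 100 kb that is 14.7, 11.7 and 13.0, against medians over the 10 genes of 11.3, 11.1 and 11.3 and over all protein-coding genes of 8.64, 7.64 and 7.07.

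Inside Jarid2 a few strong sites stood out from many weak ones, and they were at the same places in all lists. Distances inside the gene are from the second listed start. The first site had Mta2, Mbd3 and Zbtb7a summits at 2663, 2637 and 2532 bp with folds of 17.1, 14.1 and 34.5. The next, near the middle of the gene, had them at 108817, 108795 and 108761 bp with folds of 32.5, 23.9 and 25.3. Towards the 3′ end lay a site at 176535, 176484 and 176457 bp with folds of 26.4, 19.0 and 26.5, and another at 182423, 182435 and 182441 bp with folds of 20.03, 17.7 and 21.6. Weaker sites shared by all lists lay at 6190, 6209 and 6193 bp and at 175028, 175058 and 175088 bp, with folds between 10.2 and 11.9. None of these was within 1 kb of the listed start of another protein-coding gene. Over all Jarid2 summits Mta2 had a median fold of 3.96, Mbd3 of 3.82 and Zbtb7a of 3.28.

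**Figure D2:**
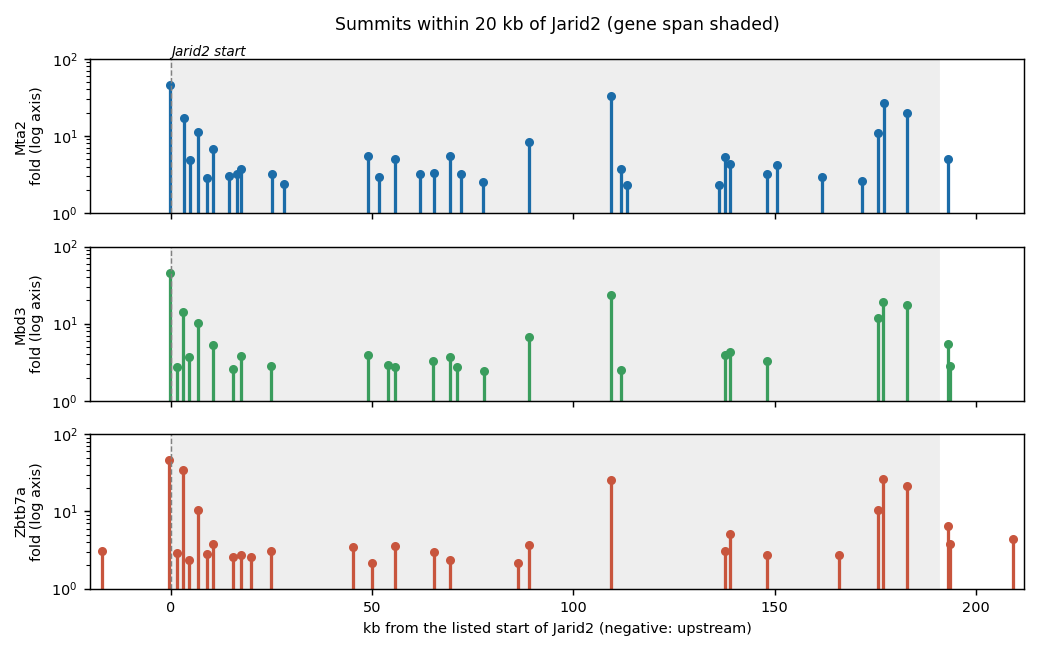
Each stem is a summit in the span of Jarid2 (shaded) or within 20 kb of it, at its distance in kb from the first listed start, with the authors' fold on a log axis; panels show Mta2, Mbd3 and Zbtb7a from top to bottom. The start and the sites in the middle and towards the 3′ end reach folds of 17.7 or more in every list, while most other stems are below 6.

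Among the PRC1 genes, both ubiquitin ligase genes were at or above percentile 95.3 of occupied genes for every factor. Rnf2 (chr1:151469398-151500991, minus strand) had folds of 43.3 for Mta2, 37.7 for Mbd3 and 61.4 for Zbtb7a, at percentiles 98.0, 97.4 and 98.7. Its Zbtb7a peak, the strongest at the start of any of the 10 genes, ranked 310 of 124616. The Mta2, Mbd3 and Zbtb7a summits stood 42, 46 and 52 bp upstream of the start, and the window held only 5, 6 and 4 summits in all.

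Ring1 (chr17:34020792-34024680, minus strand), the paralog of Rnf2, had folds of 37.3, 35.6 and 43.9 for Mta2, Mbd3 and Zbtb7a, at percentiles 96.2, 96.8 and 95.3. The Mta2 and Mbd3 summits lay 33 and 32 bp upstream of the start and that of Zbtb7a 217 bp inside the gene. Ring1 spans only 3.9 kb, and no summit of any factor lay in its body away from the start. Every other summit in its window, 5 for Mta2, 5 for Mbd3 and 8 for Zbtb7a, lay upstream in a dense stretch of genes. The stronger of these stood at starts of neighbours: at H2-Ke6 the folds were 22.3, 22.0 and 35.1, and at Rxrb, which encodes a retinoid X receptor, they were 18.2, 20.6 and 32.6.

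Bmi1 and Pcgf2 had peaks nearer the middle of occupied genes at their listed starts. Bmi1 (chr2:18677018-18686629, plus strand) had folds of 16.7 for Mta2, 16.7 for Mbd3 and 24.0 for Zbtb7a, at percentiles 56.1, 61.6 and 75.7, with summits 465, 465 and 476 bp upstream. Pcgf2 (chr11:97688821-97702434, minus strand) had 16.5, 13.3 and 19.9, at percentiles 55.2, 46.1 and 66.2. Around the Pcgf2 start, Mta2 and Zbtb7a had 1 wide interval each, of 2645 and 2633 bp, while Mbd3 had 2 separate peaks. The Mta2 summit was 766 bp upstream, the Zbtb7a summit 706 bp inside, and the Mbd3 summits were at 816 bp upstream and 732 bp inside. The listed start of Pcgf2 is 2786 bp inside the RefSeq span, and each factor also had a summit 813 or 814 bp from the span's own 5′ end. Those summits stood at the start of the neighbour Psmb3, with folds of 22.1 for Mta2, 25.1 for Mbd3 and 14.8 for Zbtb7a.

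The strongest peak in the window of any of the 10 genes belonged to Zbtb7a and lay 4696 bp upstream of Bmi1 (chr2:18671805-18673236). Its fold of 224.8 ranked 8 of 124616 in the Zbtb7a list. The summit was 113 bp from the listed start of Commd3, a gene of the COMM domain family that lies just before Bmi1 on the same strand, so by distance the peak belongs to Commd3 and not to the start of Bmi1. Mta2 and Mbd3 peaks at the same place had folds of 16.5 and 16.5, at percentiles 87.3 and 88.5 of their lists. For those factors this was close to their folds of 16.7 at the start of Bmi1, whereas the Zbtb7a fold was 224.8 at Commd3 and 24.0 at Bmi1.

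**Figure D3:**
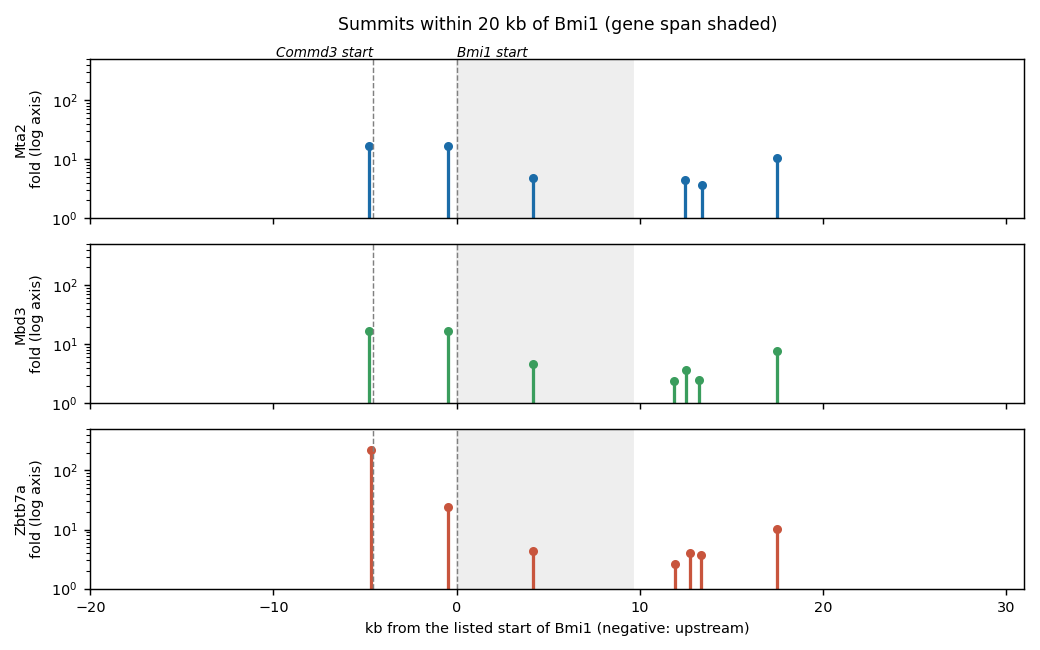
Each stem is a summit in the span of Bmi1 (shaded) or within 20 kb of it, at its distance in kb from the listed start, with the authors' fold on a log axis; panels show Mta2, Mbd3 and Zbtb7a from top to bottom and dashed lines mark the starts of Commd3 and Bmi1. The Zbtb7a stem at the Commd3 start reaches 224.8, while the Mta2 and Mbd3 stems there reach 16.5.

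Cbx7 (chr15:79915804-79971143, minus strand) had folds of 17.3, 13.4 and 18.2 for Mta2, Mbd3 and Zbtb7a at its listed start, at percentiles 58.5, 46.5 and 61.4. The summits lay 137, 75 and 124 bp upstream of it. That start is 38497 bp inside the RefSeq span, and no summit of any factor lay within 1 kb of the span's own 5′ end. The strongest peaks of Cbx7 were not at the listed start but 19470, 19496 and 19513 bp upstream of it, still within the span, with folds of 19.7, 16.2 and 18.8. A further site 4805, 4788 and 4810 bp inside the gene had folds of 14.2, 11.8 and 13.0.

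At the starts, the summits of the NuRD subunits were closer to each other than to that of Zbtb7a in most genes. These distances were measured for the 10 genes only, so whether they differ from those at other occupied starts was not tested. The distance between Mta2 and Mbd3 summits ran from 0 bp at Bmi1 to 80 bp at Jarid2, with a median of 24.0 bp. The Zbtb7a summit was within 100 bp of the Mta2 summit at 6 of the 10 genes and of the Mbd3 summit at 5, with median distances of 78.0 and 105.5 bp, counting the strongest peak of each factor. At Pcgf2 the weaker of the 2 Mbd3 summits was 26 bp from that of Zbtb7a, and with the nearest summits instead, a count added after the data were seen, the Mbd3 values were 6 genes and 65.5 bp. The widest gaps between Zbtb7a and Mta2 were 1472 bp at Pcgf2 and 970 bp at Ezh2. Exceptions were Ezh1 and Cbx7, where the Zbtb7a and Mta2 summits were 1 and 13 bp apart and the Mta2 and Mbd3 summits 22 and 62 bp. The peaks at the starts were wide: Mta2 peaks had a median width of 1654.5 bp, Mbd3 peaks 1649.5 bp and Zbtb7a peaks 1627.5 bp, against 1211, 1090 and 1061 bp at all occupied starts.

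**Figure D4:**
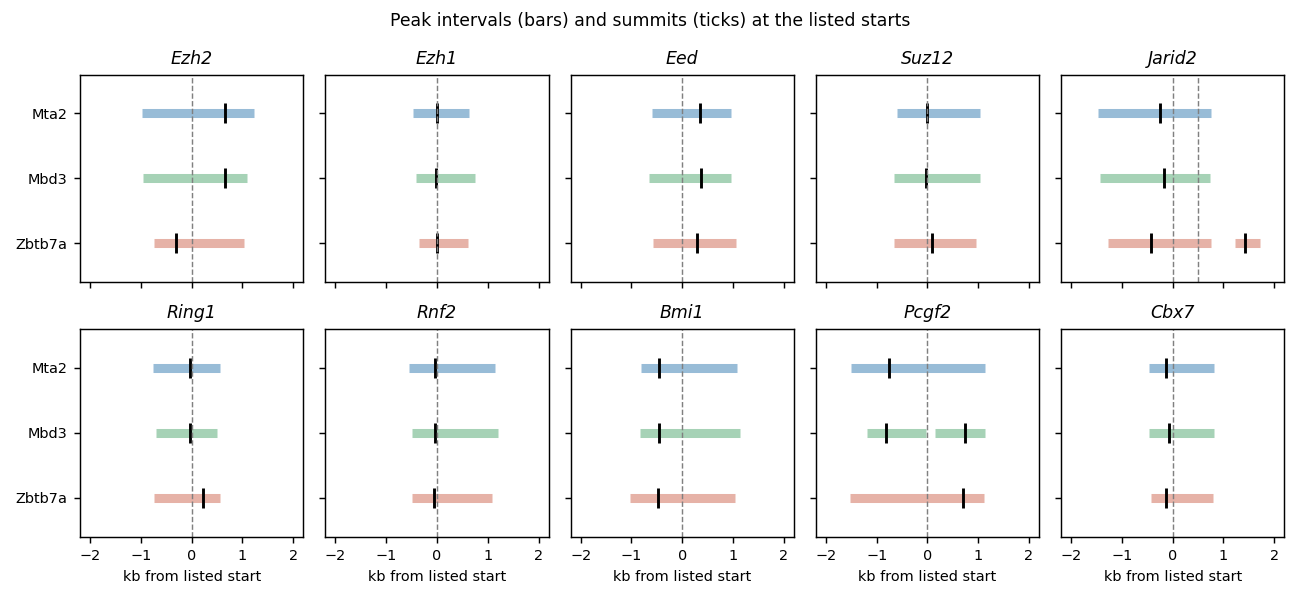
For each Polycomb gene, bars show the peak intervals with a summit within 1 kb of a listed start and black ticks their summits, by distance in kb from the listed start (dashed; Jarid2 has 2), with Mta2 above Mbd3 and Zbtb7a. The summits of the factors nearly coincide at Rnf2, Ezh1 and Bmi1, and that of Zbtb7a stands apart from both others at Ezh2; at Pcgf2 it stands apart from Mta2 and beside the second of 2 Mbd3 intervals.

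Away from their own starts, the summits in these windows had median folds of 4.98 for Mta2, 4.28 for Mbd3 and 3.78 for Zbtb7a. The medians over the whole lists, which still include peaks at starts, were 5.21, 5.02 and 5.00. With the summits at their own starts kept, the medians in the windows were 5.35, 5.24 and 4.34. The windows of the 10 genes held 107 Mta2, 98 Mbd3 and 109 Zbtb7a summits. Of these 10, 11 and 11 were within 1 kb of a listed start of the gene, 53, 43 and 45 elsewhere in the span, 16, 15 and 21 in the upstream flank and 28, 29 and 32 in the downstream flank. Among all of these, 10, 11 and 12 stood within 1 kb of the start of a different gene. The strongest peaks in the window of Ezh1 were of this kind: at the start of Plekhh3 the folds were 28.2 for Mta2, 20.8 for Mbd3 and 45.4 for Zbtb7a. These summits were close to the window's limit, with that of Mta2 at 19757 bp from the span. At Pcgf2 the strongest peaks stood at Cisd3, with folds of 25.7, 26.9 and 35.7. For Ezh2 the strongest Zbtb7a peak in the window, with a fold of 17.7, lay 489 bp beyond the end of the neighbour Cul1.

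**Figure D5:**
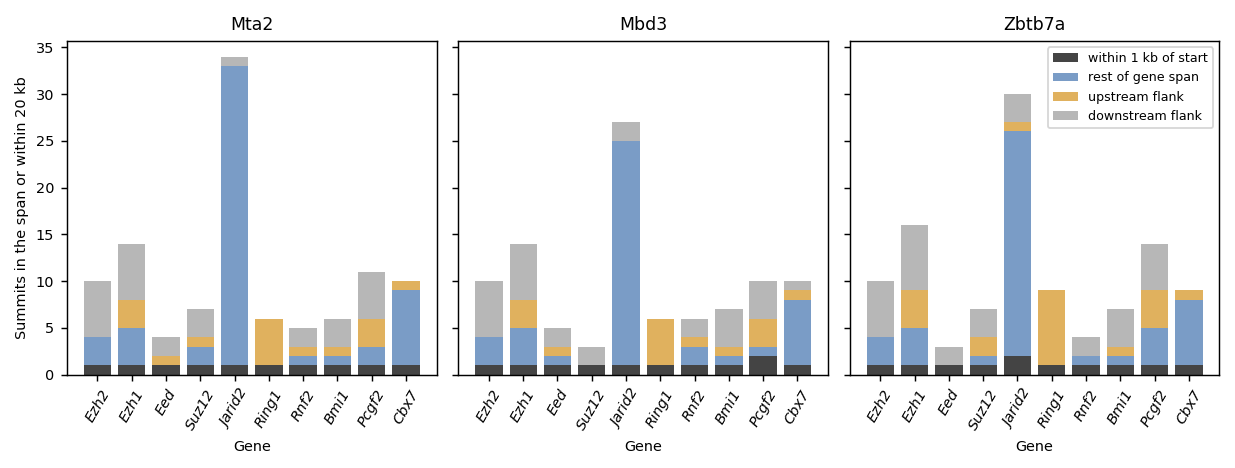
Stacked bars count the summits of Mta2, Mbd3 and Zbtb7a in the span of each Polycomb gene or within 20 kb of it, by position. Jarid2 has 34, 27 and 30 summits, nearly all in its span, while those of Ring1 apart from the start lie upstream.

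The edge of the 20 kb window passed close to further peaks at some genes. Beyond it, the nearest Suz12 summits lay 22239, 22249 and 22255 bp from the span with folds of 16.7 for Mta2, 15.0 for Mbd3 and 13.5 for Zbtb7a, and those of Ezh1 21222, 21204 and 21232 bp away with folds of 12.2, 14.7 and 18.9. Those of Ring1 were 21132, 21122 and 21129 bp away with folds of 15.5, 16.6 and 18.8. The outermost Suz12 summits inside it, at 18995, 19075 and 19077 bp, had folds of 5.84, 5.44 and 5.89.

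Most peaks in these windows were shared. Peaks that overlapped both other lists made up 79 of 107 for Mta2, 81 of 98 for Mbd3 and 81 of 109 for Zbtb7a, which is 73.8%, 82.7% and 74.3%. Over the whole lists these shares were 68.4%, 78.6% and 86.6%. Those that overlapped neither other list numbered 15, 4 and 18, with folds of at most 4.38, 4.03 and 4.34. At 8 of the 10 genes, the strongest peaks of the 3 factors in the window overlapped one another, against 66.9% of the 18156 genes with all 3 factors, and the count was 4 when only the gene spans were used. With the full window the exceptions were Ezh2 and Bmi1, where the strongest Zbtb7a peak stood next to a neighbour.

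The listed promoters of the 10 genes, 11 in all because Jarid2 has 2, were richer in CpG than others. Their median ratio of observed to expected CpG was 0.83, against 0.57 over 21045 promoters of protein-coding genes, and their median GC content was 64.3%, against 56.7%. Pcgf2 was the exception at a CpG ratio of 0.36. The GC box occurred in 8 of the 11, against 46.7% of all promoters, and the CCAAT box in 6, against 38.5%. The core CTTCCCC was found in the promoters of Jarid2, Rnf2 and Pcgf2, and in 10.5% of all promoters. In Rnf2 it began 13 bp upstream of the start. Its middle was 42 bp from the Zbtb7a summit, 32 bp from that of Mta2 and 36 bp from that of Mbd3. The GC boxes of Rnf2, which can be read in the run printed above, were 27 and 21 bp from the Zbtb7a summit. The copies of the core in Jarid2 were 328 and 341 bp from the nearest Zbtb7a summit, and that in Pcgf2 931 bp. E2F letters were present in Ezh2 and Suz12, and in 2.04% of all promoters; those of Ezh2 begin 3 bp after the start and are not in the run shown. The YY1 letters were in none of the 11, and in 3.07% of all. A match describes the letters only and is no sign of binding, and the window covers 250 bases before and 50 after each start.

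Further Polycomb genes and their counterparts were mostly occupied too. Of 38 genes in 4 lists, 28 had a listed start, and 25 of these (89.3%) had all 3 factors within 1 kb of it, beside the 64.0% of all genes and 92.4% of CpG-rich ones given above. The exceptions were Ezhip, which inhibits PRC2, Bcor, a subunit of a variant PRC1 with Zbtb7a alone at its start (fold 12.7), and Kmt2d, an H3 methyltransferase. Kmt2d still held 12 Mta2, 11 Mbd3 and 11 Zbtb7a summits in its window, Bcor 22, 25 and 24, and Ezhip 1, 1 and 0.

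Of the 7 accessory PRC2 genes with a listed start, 6 had all factors. Aebp2, whose product stabilises PRC2, had folds of 41.7 for Mta2, 42.7 for Mbd3 and 40.4 for Zbtb7a, and Rbbp7, a histone chaperone that PRC2 shares with NuRD, had 28.7, 24.9 and 40.9. Phf19, a reader of methylated H3, was low with 8.96, 4.81 and 7.34. Of the 13 other PRC1 genes with a listed start, 12 had all factors. The Polyhomeotic genes Phc3 and Phc1 had the highest Zbtb7a folds, 71.9 and 50.7, with Mta2 folds of 22.7 and 21.9 and Mbd3 folds of 20.7 and 18.4. The variant PRC1 genes L3mbtl2 and Pcgf6 were at the low end, with Zbtb7a folds of 9.42 and 10.1, Mta2 folds of 11 and 10.2 and Mbd3 folds of 8.63 and 12.3. Other variant PRC1 genes were high: Pcgf5 had folds of 46.8, 47.3 and 38.2, and Kdm2b 42.1, 39.7 and 37.1.

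Of the 6 genes of the deubiquitinase complex that removes the PRC1 mark, 4 had a listed start, and these 4 had each factor. Asxl2 had folds of 52.2 for Mta2, 50.6 for Mbd3 and 41.7 for Zbtb7a, Asxl1 36.9, 26.4 and 41.1, and the forkhead gene Foxk2 51.1, 46.6 and 29.0. Bap1, the deubiquitinase itself, had 25.0, 22.2 and 24.5. Of the 4 demethylase and trithorax genes with a listed start, which act against Polycomb silencing, 3 had all factors. Kmt2c had the highest Zbtb7a fold among the 28 genes, 144.6, at the 99.9th percentile of occupied genes, beside 49.2 for Mta2 and 28.0 for Mbd3. Kmt2a had 30.5, 32.9 and 29.5, and Kdm6a, which removes the PRC2 mark, 16.1, 13.1 and 23.5.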

How the data were processed

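Kidney cortex chromatin of 2-month-old mice was profiled by ChIP sequencing in 8 libraries, with 2 for each of Mta2, Mbd3, Zbtb7a and Input. The submitters' processing notes name the build mm10 and the tools MACS2, Bowtie2, bedtools and deepTools. Their versions and settings, the use of Input and how the mice of a group were combined are not given in the sources used. The authors deposited 1 narrowPeak list per factor, with a fold enrichment (a ratio of signal over background) and a −log10 q value per peak, and a summit offset. Read depth was not analysed here, and the absence of a peak cannot be read as absence of binding.

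Peaks on autosomes and X were ranked by fold within each list, and a percentile is the share of the list, or of occupied genes, at or below a fold. Genes came from RefSeq GRCm38.p6, whose chromosome coordinates are those of mm10. Starts and strands came from the RefSeq promoter table, which lists 17274 of 21631 protein-coding genes; the other genes were left out of counts at starts. Overlap meant at least 1 shared bp. Counting was tested on made-up summits with Python 3.11.15 and pandas 2.3.3. No test was made, because no value per mouse exists and members are not replicates. The members and lists were chosen with earlier results of these data known. Named were all 10 members, the 2 highest and 2 lowest genes by Zbtb7a percentile in each further list, and neighbours under a member's strongest peak; H2-Ke6, Rxrb, Psmb3, Cul1, Pcgf5, Kdm2b, Bcor, Kmt2d and Ezhip were named after their values were seen. Alternatives covered the peak threshold, the flank, the window at the start, the assignment of summits, the overlap and the ranking.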

Additional observations from a re-analysis of the deposited data

How the results depend on the processing

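Members with each factor within 20 kb numbered 10 for every factor when peaks were limited to −log10 q values from 10 up or to folds from 5 up, and with a flank of 5 kb or only the nearest gene, and 8 to 10 with the gene span alone. At the starts, windows of 0.5 kb left 8, 8 and 9 members for Mta2, Mbd3 and Zbtb7a, without Ezh2 for the NuRD subunits and without Pcgf2 for any factor. The fold of the other 25 peaks at starts was the same, as were all 30 with the thresholds and with 3 kb. The thresholds could not change these folds, the counts of 10 or the strongest peaks of the windows. The strongest peaks at starts and in windows all had folds of at least 12.4 and −log10 q values of at least 159.6. Summit counts fell to 58, 50 and 48 for folds from 5 up and to 58, 48 and 52 in the gene span alone. With the nearest gene only they were 71, 62 and 64, and with −log10 q values from 10 up 72, 68 and 61. With a flank of 5 kb they were 81, 74 and 76. The median list percentile of the strongest peak in the window, 96.2, 96.5 and 99.0, was 94.8 for Mta2 and 98.4 for Zbtb7a with 5 kb, 90.8, 86.7 and 90.9 in the span alone, 93.0, 94.2 and 91.1 with the nearest gene only and 97.4, 98.1 and 99.3 by −log10 q. Strongest peaks of the 3 factors overlapped at 4 members in the span alone and at 8 or 9 with the peak thresholds, the 5 kb flank, the nearest gene only and a larger minimum overlap; it was not recomputed by −log10 q. The span alone drops summits just upstream of a start, by its construction. The nearest-gene rule drops peaks at neighbours such as Commd3. No paired analysis was possible because each factor has 1 list for both mice, and for the same reason no replicate could be left out.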
